A study of Mus musculus with 2 samples.

Results

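The genes examined here were 37 genes of cholesterol and fatty acid synthesis that are known targets or regulators of the SREBP transcription factors, matched by symbol among the 43280 gene symbols counted in each library. The sterol arm held 21 of them and the fatty acid arm 16. RNA-seq compared small hepatocytes (SHs), which the labels describe as hepatocyte progenitors of the adult liver, with mature hepatocytes (MHs). Both came from the same C57BL6 mice, untreated and with no engineered allele in the labels, which give an age of 20 weeks, whereas the study's methods give a younger range. MHs were taken fresh after collagenase perfusion, passed over Percoll to remove dead cells, and not sorted. SHs were isolated from the same perfused livers and sorted by FACS for ICAM-1 and against CD31, CD45 and EpCAM, that is, as ICAM-1+ cells without the endothelial, blood and biliary marker. Cells of 3 mice were used according to the methods, and there was 1 library of each kind, so no animal has a value of its own and no difference between conditions was tested.

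SREBPs are made as precursors held in the endoplasmic reticulum by Scap and the Insig proteins. When sterols run low, Scap escorts the precursor to the Golgi, where 2 proteases release the part that enters the nucleus. SREBP-2, the product of Srebf2, mainly drives cholesterol synthesis, and SREBP-1c, a product of Srebf1, mainly drives fatty acid synthesis in the liver under insulin. ChREBP, the product of Mlxipl, responds to glucose and shares many targets of the fatty acid arm. The level of an mRNA does not show how much of the transcription factor is processed.

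SREBPs bind sterol response elements near the start of their targets, often beside a CCAAT box bound by NF-Y, and the sequences before 4 members are shown because they hold such letters. RefSeq windows of GRCm38.p6, from 250 bases before to 50 bases after a start, were found for 31 of the 37 members. Scd1, Sqle, Fads1, Stard4, Fdft1 and Fdps had none in the table. The bases before the start are printed 5′ to 3′ on the gene's strand, for Hmgcs1 at chr13:119690101-119690350 (plus strand), Mlxipl at chr5:135106641-135106890 (plus strand, 1 of its 2 windows), Srebf2 at chr15:82147019-82147180 (plus strand, stopped before the first annotated exon) and Fasn at chr11:120824548-120824797 (minus strand). Capitals mark TCACNCCAC, ATCACCC or CCAAT on either strand, so that a CCAAT box on the other strand reads ATTGG.
Hmgcs1: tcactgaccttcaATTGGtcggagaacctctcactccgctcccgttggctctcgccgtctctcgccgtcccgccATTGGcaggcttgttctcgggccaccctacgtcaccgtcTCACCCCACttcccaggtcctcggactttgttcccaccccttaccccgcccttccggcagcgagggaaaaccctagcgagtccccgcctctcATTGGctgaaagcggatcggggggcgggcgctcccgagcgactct
Mlxipl: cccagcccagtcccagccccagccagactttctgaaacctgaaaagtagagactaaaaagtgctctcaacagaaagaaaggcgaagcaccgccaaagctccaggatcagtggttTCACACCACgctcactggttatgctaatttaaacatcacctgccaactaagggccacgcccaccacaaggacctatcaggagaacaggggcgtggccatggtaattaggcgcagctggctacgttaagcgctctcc
Srebf2: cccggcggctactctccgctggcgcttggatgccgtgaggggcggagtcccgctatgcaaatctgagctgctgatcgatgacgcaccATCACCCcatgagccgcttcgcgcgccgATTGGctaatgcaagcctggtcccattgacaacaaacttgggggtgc
Fasn: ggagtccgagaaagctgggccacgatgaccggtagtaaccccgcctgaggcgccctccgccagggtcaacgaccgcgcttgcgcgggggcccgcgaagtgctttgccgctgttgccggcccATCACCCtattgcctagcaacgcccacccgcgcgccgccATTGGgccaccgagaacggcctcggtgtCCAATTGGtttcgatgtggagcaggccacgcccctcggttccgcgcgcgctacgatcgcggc

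TCACNCCAC was found in the windows of 2 members, Hmgcs1 and Mlxipl, and in 1.24% of all 32851 windows and 1.44% of all genes. In Hmgcs1 it began 137 bases before the start and in Mlxipl 136. ATCACCC, the opening letters of the classical element, was found in Fasn, Nsdhl and Srebf2, in 2.69% of all windows and in 3.07% of all genes. CCAAT was found in 27 of the 31 members, 16 of 17 in the sterol arm and 11 of 14 in the fatty acid arm, against 37.4% of all windows and 41.1% of all genes with a window. The E-box CACGTG was in 6 of the 31 members (19.35%), namely Dhcr7, Hsd17b7, Insig1, Sc5d, Elovl5 and Mlxipl. It was in 7.15% of all windows and 8.09% of all genes. TCACNCC, a looser form that every TCACNCCAC also matches, was in 6 of the 31 members (19.35%). That is near its share of 17.58% of all genes, and it was in 15.6% of all windows. The matches describe letters in a window and not binding.

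The MH library held 16979136 counted reads and the SH library 42356444. Levels are reads per 1000000 counted reads of the library (RPM), and 3 reads corresponded to 0.177 RPM in MHs and 0.0708 RPM in SHs. Each ratio is the log2 of SH over MH after 0.5 reads were added, with a 95% Clopper-Pearson interval that covers counting error only and neither animals nor isolations. Hepatocyte markers were present in both libraries, 10 of 10 genes summing to 89146 RPM in MHs and 92469 RPM in SHs, with Alb at 55706 and 60855 RPM. The labels' account of SHs as hepatocytes therefore had its defining genes in the data. Other cell types differed between the libraries. The 12 endothelial markers summed to 103 RPM in MHs and 4.91 RPM in SHs, with Lyve1 at 0 in SHs. Of 11 macrophage markers, the 10 with at least 10 reads summed to 22.7 RPM in MHs and 1.13 RPM in SHs. Marco had 3 reads in MHs and 0 in SHs. Cd68, with 7 reads in MHs and 15 in SHs, had a ratio of -0.27 and an interval that held 0. Of 11 stellate markers, the 10 with at least 10 reads summed to 28.4 and 2.55 RPM, with Colec11 at 0 in SHs. The remaining marker, Col1a1, went the other way on 1 read in MHs and 6 in SHs, with an interval that held 0. Of the cholangiocyte markers, Sox9 was at 5.42 RPM in MHs and 7.67 RPM in SHs and Spp1 at 8.01 and 6.40 RPM, while Krt19 was at 1 read in either library and Epcam at 6 (MHs) and 1 (SHs). The part of other cells in the ratios below was not tested. In these bulk libraries fewer cells of a type and less RNA per cell cannot be told apart.

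Both arms were expressed in MHs and SHs at nearly the same level, and the order of the genes was similar. All 37 members had at least 10 reads over both libraries and 32 had at least 1000. In summed level the sterol arm stood at 1462 RPM in MHs and 1378 RPM in SHs, and the fatty acid arm at 10462 and 10431 RPM. Only Pnpla3, with 81 reads in all, met the rule for a call, which asked for a ratio of at least 1.5-fold with its interval on the same side of 0. No member was called lower in SHs.

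**Figure D1:**
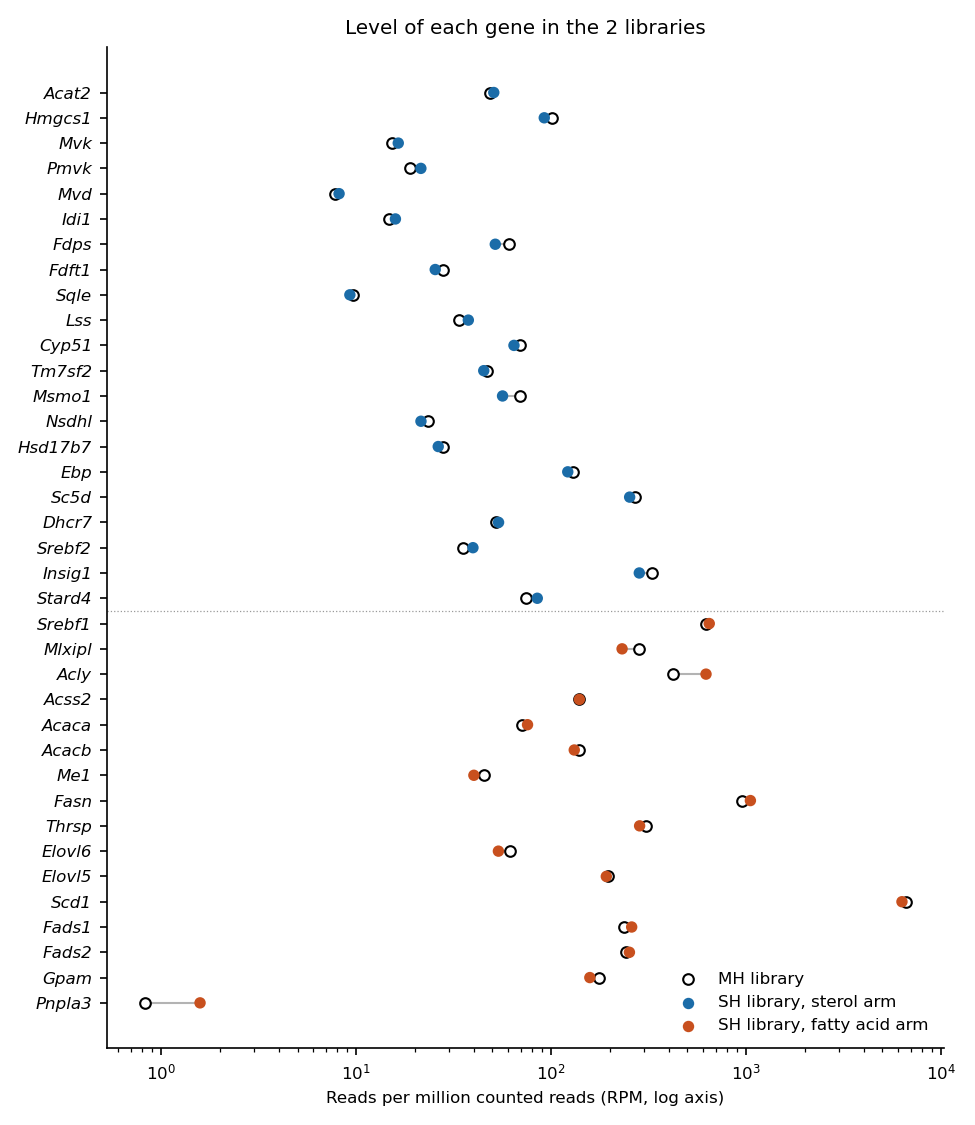
Level of each of the 37 genes in RPM (log axis), with open points for the MH library and filled points for the SH library, blue for the sterol arm and orange for the fatty acid arm. Levels run from Pnpla3, at 0.825 RPM in MHs and 1.58 RPM in SHs, to Scd1, at 6572 and 6294 RPM, and the points of most genes overlap or nearly do.

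Over all genes, 15521 had at least 10 reads, and of these 6.2% were called lower in SHs and 3.5% higher. Most members had many more reads than that minimum, and for deep counts the intervals are narrower. At 1000 reads or more there were 5055 genes, of which 1.68% were called lower and 0.87% higher, and none of the 32 members with that many reads was called. A count of 0 among 32 genes is near that background.

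With the size of the ratio set aside, 14 of the 37 intervals lay under 0, 8 above 0 and 15 held 0. The background was 15.5% under and 16.8% above among genes with at least 10 reads, and 21.1% under and 31.2% above among genes with at least 1000. Of the 32 members with at least 1000 reads, 14 lay under 0 and 7 above. All of these counts use library totals. With the other scalings 12 or 11 of the 37 intervals lay under 0 and 11 above, so the members' counts depend on the scaling. The same scalings moved all genes alike, from a median of 0.02 to between 0.03 and 0.05. The matching shares over all genes are not given here, so the lean was not compared with a background under them. All 14 genes whose interval lay under 0 had ratios between -0.29 and -0.06, which are small differences counted precisely.

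The width of the ratios says the same in other terms. The interval lay wholly within 1.5-fold for 35 of the 37 members (94.6%), the exceptions being Pnpla3 and Acly. The share was 51.9% of all genes with at least 10 reads and 95.1% of those with at least 1000. Of the 32 members with at least 1000 reads it was 96.9%, which is near the share of all genes at that depth. The median over members was -0.05 with an SD over genes of 0.22, and the median of all genes was 0.02, or 0.04 with at least 1000 reads.

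**Figure D2:**
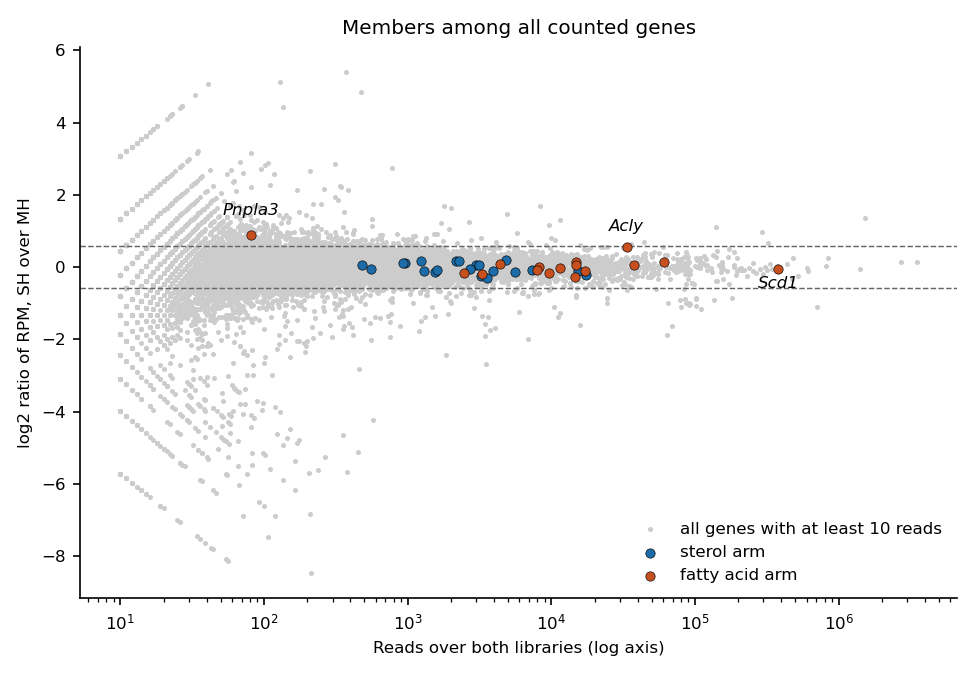
Ratio of each gene with at least 10 reads (log2 of SH over MH, vertical axis) against its reads over both libraries (log axis), in grey, with the sterol arm in blue and the fatty acid arm in orange. Dashed lines mark 1.5-fold. Pnpla3 lies above the upper line with 81 reads, Acly just under it with 33508, and the other 35 members lie between the lines.

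The arms were compared next. The sterol arm had a median log2 ratio of -0.06, with an SD over genes of 0.15 and a range from -0.29 (Msmo1) to 0.19 (Stard4). Of its 21 ratios 12 were under 0 and 9 above, and 7 intervals lay under 0, 3 above and 11 held 0. The fatty acid arm had a median of -0.02, an SD over genes of 0.30 and a range from -0.28 (Mlxipl) to 0.90 (Pnpla3). Of its 16 ratios 9 were under 0 and 7 above, and 7 intervals lay under 0, 5 above and 4 held 0. The sterol median was thus lower by 0.04 on the log2 scale, a difference that was not tested.

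Within each library the sterol arm held 12.3% of the reads of both arms in MHs (95% interval 12.1 to 12.4) and 11.7% in SHs (11.6 to 11.8). The intervals do not overlap, and the difference is small. As a sum, the sterol arm had a ratio of -0.09 (interval -0.11 to -0.06) and the fatty acid arm one of -0.00 (-0.01 to 0.00). Sums rest on the genes with the most reads. Scd1 alone held 62.8% of the fatty acid arm's reads in MHs and 60.3% in SHs, and without it the arm stood at 3890 RPM in MHs and 4137 RPM in SHs, a ratio of 0.09 (0.08 to 0.10). Most of that difference in RPM lay in Acly, at 421 RPM in MHs and 622 RPM in SHs. Insig1 held 22.4% of the sterol arm's reads in MHs and 20.5% in SHs.

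**Figure D3:**
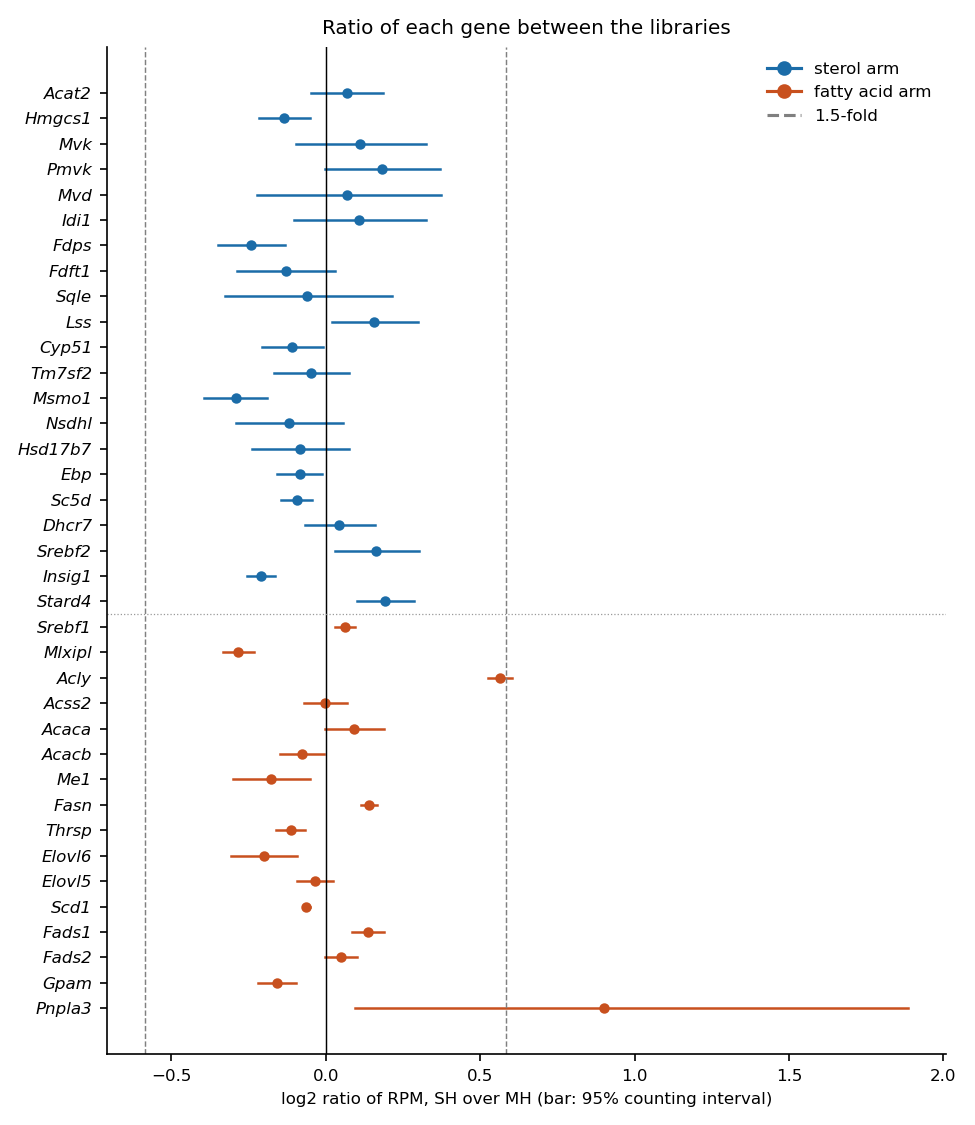
Log2 ratio of RPM, SH over MH, for each gene, with points for the ratio and bars for the 95% counting interval, blue for the sterol arm and orange for the fatty acid arm. Dashed lines mark 1.5-fold. The 21 sterol genes lie between -0.29 and 0.19, and only Acly and Pnpla3 reach the right dashed line.

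Of the regulators of the sterol arm, Srebf2 had 601 reads in MHs and 1681 in SHs, or 35.4 and 39.7 RPM, a ratio of 0.16 (0.03 to 0.30). Insig1, which retains SREBPs in the endoplasmic reticulum and is itself a sensitive target of them, had 5556 and 11988 reads, or 327 and 283 RPM, with a ratio of -0.21 (-0.26 to -0.16). It lies at chr5:28071363-28078662 on the plus strand. The gene with the factor's mRNA and the gene of its retention protein thus differed in opposite directions, with both intervals within 1.5-fold. Stard4, which carries cholesterol between membranes, had 1260 and 3594 reads and the highest ratio of the arm, 0.19 (0.10 to 0.29).

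The mevalonate steps turn acetyl-CoA into farnesyl diphosphate. Acat2, the cytosolic thiolase that opens the route, stood at 48.4 RPM in MHs and 50.8 RPM in SHs, a ratio of 0.07 (-0.05 to 0.19). Hmgcs1, the HMG-CoA synthase whose promoter is shown above, had 1718 and 3903 reads, or 101 and 92.1 RPM, a ratio of -0.14 (-0.22 to -0.05). The next enzymes were a little above 0 with intervals that held it. Mvk, mevalonate kinase, was at 15.2 and 16.4 RPM (0.11, -0.10 to 0.32), and Pmvk, phosphomevalonate kinase, at 18.9 and 21.5 RPM (0.18, -0.00 to 0.37). Mvd, the decarboxylase, was at 7.77 and 8.17 RPM (0.07, -0.22 to 0.37) and Idi1, the isomerase of isopentenyl diphosphate, at 14.7 and 15.9 RPM (0.11, -0.10 to 0.33). Fdps, farnesyl diphosphate synthase, went the other way with 1037 reads in MHs and 2189 in SHs, 61.1 and 51.7 RPM, and a ratio of -0.24 (-0.35 to -0.13). The 7 genes summed to 267 RPM in MHs and 257 RPM in SHs.

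Squalene and lanosterol are made from farnesyl diphosphate by 3 enzymes. Fdft1, squalene synthase, was at 27.8 RPM in MHs and 25.4 RPM in SHs (-0.13, -0.29 to 0.03). Sqle, squalene epoxidase and a slow step of the pathway, was at 9.66 and 9.28 RPM (-0.06, -0.32 to 0.21). Its interval is wide because only 164 and 393 reads were counted, and a difference inside that interval was not detectable at this depth. Lss, lanosterol synthase, was at 33.7 and 37.6 RPM, with an interval above 0 (0.16, 0.02 to 0.30). Fdft1 shares 774 exonic bases with Ctsb, a lysosomal protease gene, on the opposite strand, which had 7625 and 19507 reads and a ratio of 0.04, and whether the counts used strand is not stated.

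After lanosterol, 7 of 8 genes had a ratio under 0, with 4 intervals under 0 and none above. Together they stood at 687 RPM in MHs and 642 RPM in SHs, a ratio of -0.10 (-0.13 to -0.07). The lowest was Msmo1, the oxidase that removes methyl groups from the sterol ring, with 1170 and 2385 reads, or 68.9 and 56.3 RPM, and a ratio of -0.29 (-0.39 to -0.19). It lies at chr8:64718139-64733792 on the minus strand. Cyp51, lanosterol demethylase, was at 69.4 and 64.4 RPM (-0.11, -0.21 to -0.01), Ebp, the sterol isomerase, at 129 and 122 RPM (-0.08, -0.16 to -0.01), and Sc5d, a sterol desaturase, at 269.6 and 253 RPM (-0.09, -0.14 to -0.04). These were among the precise values of the arm, since Sc5d alone had 4578 reads in MHs and 10698 in SHs. Tm7sf2, a sterol reductase, had a ratio of -0.05, Nsdhl, a sterol dehydrogenase, one of -0.12 and Hsd17b7, a ketosteroid reductase, one of -0.08, all with intervals that held 0. Dhcr7, which makes cholesterol from its last precursor, was at 52.1 and 53.7 RPM (0.04, -0.07 to 0.16) and was the one gene of the group above 0. Cyp51 shares 166 exonic bases with Akap9 on the opposite strand and Tm7sf2 shares 532 with Vps51 on the same strand, at ratios of 0.06 and 0.31 for the neighbours.

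In the fatty acid arm, Srebf1 had 10513 reads in MHs and 27388 in SHs, or 619 and 647 RPM, a ratio of 0.06 (0.03 to 0.10). Mlxipl was lower in SHs, with 4771 and 9784 reads, 281 and 231 RPM, and a ratio of -0.28 (-0.33 to -0.23), the lowest of the arm. Per exon length (RPKM), Srebf1 stood at 110 in MHs and 115 in SHs and Mlxipl at 50.7 and 41.7, so that the level of Srebf1 was 2.17 times that of Mlxipl in MHs and 2.75 times in SHs. Srebf1 was also 22.3 times the level of Srebf2 per length in MHs and 20.8 times in SHs. Counts per gene do not separate the Srebf1 transcripts that encode SREBP-1a and SREBP-1c.

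The enzymes that supply acetyl-CoA, malonyl-CoA and NADPH held the clearest difference. Acly, the ATP citrate lyase that splits citrate into cytosolic acetyl-CoA, had 7148 reads in MHs and 26360 in SHs, or 421 and 622 RPM. Its ratio was 0.56 (0.53 to 0.60), a fold of 1.48 that lies just under the 1.5-fold line, so Acly was not called. It lies at chr11:100476353-100528000 on the minus strand. Acss2, which makes acetyl-CoA from acetate, stood at 139.6 RPM in MHs and 139.5 RPM in SHs, a ratio of -0.00 (-0.07 to 0.07). Per length, Acly was 5.81 times the level of Acss2 in MHs and 8.59 times in SHs. Acss2 shares 395 exonic bases with Gss on the opposite strand, which had 824 and 3044 reads and a ratio of 0.57.

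Acetyl-CoA carboxylase makes malonyl-CoA, and its 2 forms stood close to 0. Acaca, the cytosolic form used for synthesis, was at 70.9 and 75.6 RPM (0.09, -0.00 to 0.19). Acacb, the mitochondrial form that restrains fatty acid oxidation, was at 138 and 131 RPM (-0.08, -0.15 to -0.01). Acacb had the higher level per length in both libraries, with Acaca at 0.289 of it in MHs and 0.325 in SHs. Me1, malic enzyme and a source of NADPH, was at 45.3 and 40.1 RPM (-0.18, -0.30 to -0.05). The 5 genes summed to 815 RPM in MHs and 1009 RPM in SHs, and the difference of Acly in RPM was larger than that of the sum.

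Fasn, fatty acid synthase, had 16184 reads in MHs and 44519 in SHs, or 953 and 1051 RPM, with a ratio of 0.14 (0.12 to 0.17). Thrsp, a small protein that promotes lipogenesis and a classical target of thyroid hormone, had 5217 and 12034 reads, or 307 and 284 RPM, and a ratio of -0.11 (-0.16 to -0.07). The pair had intervals on opposite sides of 0. Thrsp had the second highest level of all members per length, at 140 RPKM in MHs and 130 RPKM in SHs.

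Desaturases and elongases finish the chains. Scd1, which makes monounsaturated fatty acids, had 111587 reads in MHs and 266594 in SHs, which is 0.657% and 0.629% of all counted reads. Its levels were 6572 and 6294 RPM and its ratio -0.06 (-0.07 to -0.05). It lies at chr19:44394455-44407879 on the minus strand. At 1343 RPKM in MHs and 1287 RPKM in SHs it stood 15.4 and 13.4 times above Fasn per length, and 437 and 468 times above its paralog Scd2, which had 285 and 636 reads. Of the desaturases of polyunsaturated chains, Fads1 was at 235 and 259 RPM with an interval above 0 (0.14, 0.08 to 0.19), and Fads2 at 243 and 252 RPM with an interval that held 0 (0.05, -0.00 to 0.10). Elovl5, which extends polyunsaturated chains, was at 197 and 192 RPM (-0.04, -0.09 to 0.02). Elovl6, which extends the products of fatty acid synthase, was at 61.6 and 53.6 RPM (-0.20, -0.31 to -0.09). Per length Elovl6 stood at 0.172 of the level of Elovl5 in MHs and 0.153 in SHs.

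Glycerolipid assembly was represented by a gene of high level and one near the limit of depth. Gpam, the mitochondrial acyltransferase that starts triglyceride synthesis, had 2990 and 6685 reads, 176 and 158 RPM, and a ratio of -0.16 (-0.22 to -0.10). Pnpla3, a lipid droplet protein, rose from 14 reads (0.825 RPM) in MHs to 67 reads (1.58 RPM) in SHs. Its ratio was 0.90 with an interval from 0.09 to 1.89, the widest of all members, and both levels were the lowest of the 37. It lies at chr15:84167837-84187236 on the plus strand, and Mir6392, which lies within its span but shares no exonic base, had 4 and 10 reads.

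Levels were also ranked per length. Over the 37 members Spearman's rho of RPKM between MHs and SHs was 0.989, a description across genes of 2 libraries, and no gene moved by more than 4 places while 13 kept their place. The sterol arm had a median of 10.6 RPKM in MHs and 9.23 RPKM in SHs, from Sqle (1.74 and 1.67) to Insig1 (106 and 91.5). The fatty acid arm had a median of 49.8 RPKM in MHs and 47.7 RPKM in SHs, from Pnpla3 (0.533 and 1.02) to Scd1. Whether neighbours in these orders have overlapping counting intervals was not examined, and none has a replicate spread.

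The other genes of these pathways were described by lists. Of 17 further sterol pathway genes 15 had at least 10 reads, with a median of 0.09, a range from -0.38 (Por) to 0.31 (Cyb5r3) and none called. Cyb5b, a cytochrome b5, was at 366 RPM in MHs and 361 RPM in SHs (-0.02, -0.06 to 0.03), and Cyb5r3, its reductase, at 260.4 and 323 RPM. The list's median lies on the other side of 0 from that of the sterol arm, and the difference was not tested.

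Of 10 genes that process or retain SREBPs, with a median of -0.09, 1 was called. Mbtps2, the site-2 protease that releases SREBPs in the Golgi, fell from 5.18 RPM in MHs (88 reads) to 3.38 RPM in SHs (143 reads), a ratio of -0.62 (-1.01 to -0.22). Insig2, the second retention protein, was at 241 and 214 RPM (-0.17, -0.22 to -0.11) and Scap at 106 and 116 RPM (0.13, 0.05 to 0.21). Insig1 exceeded Insig2 per length 1.53 times in MHs and 1.48 times in SHs. Of the list's 10 intervals 5 lay under 0, 1 above and 4 held it. Insig2 was among those under 0, and Scap was the 1 above. From the sterol arm, Insig1 lay under 0 and Srebf2 above. The intervals of Insig1, Insig2, Scap and Srebf2 were all within 1.5-fold.

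**Figure D4:**
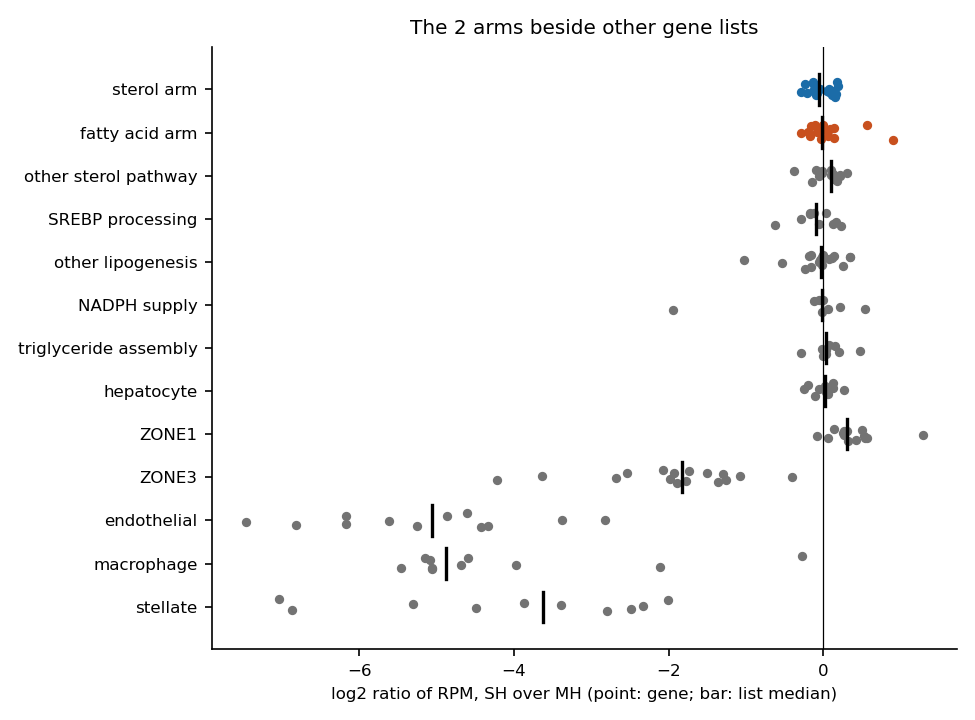
Log2 ratio of RPM, SH over MH, for the genes with at least 10 reads in each list (points) with the list's median (bar). The sterol and fatty acid arms have medians of -0.06 and -0.02, the ZONE1 list 0.30 and the ZONE3 list -1.83, and the lists of other cell types lie mostly at the far left, where genes without a read in SHs are plotted with 0.5 reads added.

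The arms can be set beside the zonation of the lobule, since SHs and MHs differed in it. Fatty acid synthesis is commonly placed towards the central vein (ZONE3) and cholesterol synthesis towards the portal vein (ZONE1). All 16 ZONE3 genes had intervals under 0, with a median of -1.83 and a range from -4.23 (Slc1a2) to -0.41 (Aldh1a1), and Cyp2e1 went from 2243 RPM in MHs to 606 RPM in SHs. The 15 ZONE1 genes had a median of 0.30, from -0.08 (Tfrc) to 1.29 (Aldh1b1), with Pck1 at 2527 and 3397 RPM. Every sterol gene lay above the highest ZONE3 ratio and under the ZONE1 median, and so did every fatty acid gene except Acly and Pnpla3. The lists are not apart from the members on the ZONE1 side. Some members, such as Stard4 at 0.19 and Fasn at 0.14, lay within the ZONE1 range. Others, such as Msmo1 at -0.29 and Mlxipl at -0.28, lay under its lowest ratio. The part of the zonal makeup of the libraries in the members' ratios was not tested.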

How the data were processed

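Poly(A) RNA of 1 MH and 1 SH sample was read on an Ion Proton instrument. The deposited values are raw whole counts of reads for each gene symbol. In the methods, the authors aligned reads to mm10 in CLC Genomics Workbench, allowing several hits per read, and reported RPKM. The program and annotation behind the counts are not given in the sources used here, so paralogs such as Scd1 and Scd2 are uncertain. RPM and log2 ratios were computed in Python 3.11.15 with pandas 2.3.3, numpy 2.4.6 and scipy 1.17.1 and checked on simulated counts, and figures were drawn with matplotlib 3.10.9. Exon lengths and positions came from GENCODE M21 (mm10), which held all 37 members, and windows from RefSeq. Scaling by edgeR 4.0.16 and DESeq2 1.42.0 (R 4.3.3), other read minimums and other folds were alternatives. Named genes were all members, called genes and the 3 with the most reads of each related list, extremes and the most abundant gene of zone and cell type lists, and overlapping genes with at least 10% of a member's reads. Some genes that this rule would name are not reported here. Members and lists were chosen with earlier results of these data known. The class of at least 1000 reads, the intervals within 1.5-fold, the level pairs, the searches for all motifs but TCACNCCAC and the CCAAT box, the cell type markers named singly and the Srebf2 and Fasn windows were chosen after values were seen.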

Additional observations from a re-analysis of the deposited data

How the results depend on the processing

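No paired analysis was possible because each condition had 1 library. Each of the 5 other scalings moved every gene by the same amount, 0.0091 to 0.0315 on the log2 scale, and 31 of the 37 members kept their interval on the same side of 0 under all 5. Pmvk, Acaca and Fads2 went from holding 0 to above it under all 5, Cyp51 and Acacb from under 0 to holding it under all 5, and Ebp under 3. With edgeR and DESeq2 scaling 12 intervals lay under 0 and 11 above, and with the other 3 scalings 11 lay on each side. The sterol median ran from -0.08 to -0.03 and the fatty acid median from -0.04 to 0.01, over scalings, read minimums, added reads and enzymes only, so the sign of the fatty acid median is not settled. Members called higher numbered 2, with Acly at 0.60 and 0.59, under totals without the 10 most abundant genes and totals of protein-coding genes. They numbered 0 at 2-fold, at a minimum of 100 reads and at a minimum of 1000 reads. With any fold accepted and library totals, 14 were called lower and 8 higher. Without Insig1 and Scd1 the sterol arm held 22.6% of the arms' reads in MHs and 20.9% in SHs, and per exon length 15.8% and 15.1%, lower in SHs each time. No called value changed sign, and among fatty acid genes 8 in place of 9 ratios were under 0 under every other scaling. Depth limits Pnpla3, Mvd, Sqle and Idi1 most, and without a second library of either kind no value here has a replicate error.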

Other observations

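Related lists outside the 37 genes were also close to 0. Of 20 further lipogenic genes 19 had at least 10 reads, with a median of -0.03, and 1 was called. Fads3, a desaturase of the Fads family, fell from 2.83 RPM in MHs (48 reads) to 1.39 RPM in SHs (59 reads), a ratio of -1.02 (-1.60 to -0.44). Elovl3, an elongase of very long chains, was at 422 RPM in MHs and 291 RPM in SHs (-0.54, -0.58 to -0.50) and stayed under 1.5-fold, while Elovl2 was at 461 and 509 RPM (0.14) and Acsl5, an acyl-CoA synthetase, at 257 and 226 RPM (-0.18).

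The 8 NADPH genes with at least 10 reads had a median of -0.01. Me2, mitochondrial malic enzyme, was called lower on 8 reads in MHs and 5 in SHs, which is little to count. Idh1 was at 342 RPM in MHs and 339.8 RPM in SHs, Nnt at 112 and 129 RPM (0.21, 0.14 to 0.29) and Tkt at 114 RPM in MHs and 110.0 RPM in SHs. The triglyceride assembly list held 14 symbols, of which Gpat3 and Agpat9 name the same gene. Of its genes 10 had at least 10 reads, with a median of 0.04 and none called. Dgat2, which adds the last acyl chain, was at 316 and 325 RPM (0.04), Agpat2 at 203 and 202 RPM (-0.00) and Agpat6 at 188 and 198 RPM (0.07).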
